A study of Mus musculus with 238 samples.

Results

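Prl, Gh, Cga and Tshb, 4 of the 21076 gene rows of the count table, were followed in every brain library of 9 female and 7 male C57BL/6JN mice aged 19 months. They encode hormones of the pituitary gland and were chosen by name with their levels in these libraries already known, so the levels below are a description. In the diet experiment, 5 female mice were under dietary restriction (aDR, mice 61, 62, 64, 65 and 67) and 4 female mice fed ad libitum (AL, mice 63, 66, 68 and 69). In the plasma experiment, male mice received retro-orbital injections, 3 of plasma from young mice (YMP, mice 73, 77 and 81) and 4 of phosphate-buffered saline (PBS, mice 72, 76, 80 and 84). No genetic modification is named in the labels. Up to 15 brain regions were taken from each mouse, giving 131 brain libraries of the diet experiment and 98 of the plasma experiment. The 9 liver libraries, from the diet mice, served as a tissue outside the brain. Sex and experiment coincide, so they cannot be told apart.

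The anterior pituitary lies below the hypothalamus and releases peptide hormones into the blood. Lactotrophs make prolactin (Prl), somatotrophs make growth hormone (Gh), and both cell types, with thyrotrophs, depend on the POU-domain factor Pou1f1. Cga encodes the alpha subunit shared by thyrotropin, luteinising hormone and follicle-stimulating hormone, and Tshb the beta subunit that gives thyrotropin its specificity. Cga and Tshb are also made in the pars tuberalis, a thin layer of pituitary tissue against the base of the hypothalamus. Brain tissue is known to hold much lower amounts of some of these messages.

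On the mouse assembly GRCm38, Prl lies on the plus strand at chr13:27057570-27065205, Gh on the minus strand at chr11:106300271-106301865, Cga on the plus strand at chr4:34893779-34907370 and Tshb on the minus strand at chr3:102775465-102782718. RefSeq's promoter table for GRCm38.p6 held 3 of the 4 genes (Gh was not matched), and the 250 bases before each start are shown because the genes were read in different combinations of libraries, described further on. Capitals mark the letters TATNCAT, the core of sites bound by Pou1f1, searched on both strands. The Prl promoter (chr13:27057320-27057569, plus strand) held the motif on the minus strand at positions -148 to -142 and on the plus strand at -47 to -41, counted back from the start. No match was found in these windows of Cga (chr4:34893529-34893778, plus strand) and Tshb (chr3:102782715-102782964, minus strand). Of 32851 promoter windows of this length, 7.92% held at least 1 match and 1.26% at least 2.
Prl: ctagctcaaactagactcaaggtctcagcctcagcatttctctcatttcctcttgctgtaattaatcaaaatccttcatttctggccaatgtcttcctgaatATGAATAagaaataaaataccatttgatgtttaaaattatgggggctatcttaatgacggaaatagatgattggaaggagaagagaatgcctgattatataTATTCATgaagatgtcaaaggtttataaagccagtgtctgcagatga
Cga: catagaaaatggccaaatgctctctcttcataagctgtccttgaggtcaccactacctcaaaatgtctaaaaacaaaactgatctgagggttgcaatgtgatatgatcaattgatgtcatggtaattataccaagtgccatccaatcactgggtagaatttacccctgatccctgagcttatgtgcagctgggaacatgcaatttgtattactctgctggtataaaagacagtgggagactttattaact
Tshb: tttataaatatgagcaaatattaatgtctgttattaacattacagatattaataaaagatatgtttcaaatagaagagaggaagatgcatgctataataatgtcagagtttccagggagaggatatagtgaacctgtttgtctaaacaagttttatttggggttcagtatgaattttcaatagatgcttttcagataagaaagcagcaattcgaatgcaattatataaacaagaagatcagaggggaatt

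Prl, Gh and Cga were absent or nearly so from most brain libraries and very abundant in a few, while Tshb was read at a low level nearly everywhere. Levels are given as CPM, the gene's count per 1000000 counts of the library's total. Over all brain libraries the median was 0 CPM for Prl, Gh and Cga and 0.597 CPM for Tshb. More than 3 counts, the floor used here for calling a gene present, were found for Prl in 57 libraries, for Gh in 51, for Cga in 46 and for Tshb in 140. A single library, the pons of aDR mouse 67, held 86.5% of all Prl counts, 62.9% of the Gh counts, 76.6% of the Cga counts and 37.1% of the Tshb counts from brain. The libraries held 0.606 to 32.4 M counts each (M, 1000000), with a median of 8.44 M.

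**Figure D1:**
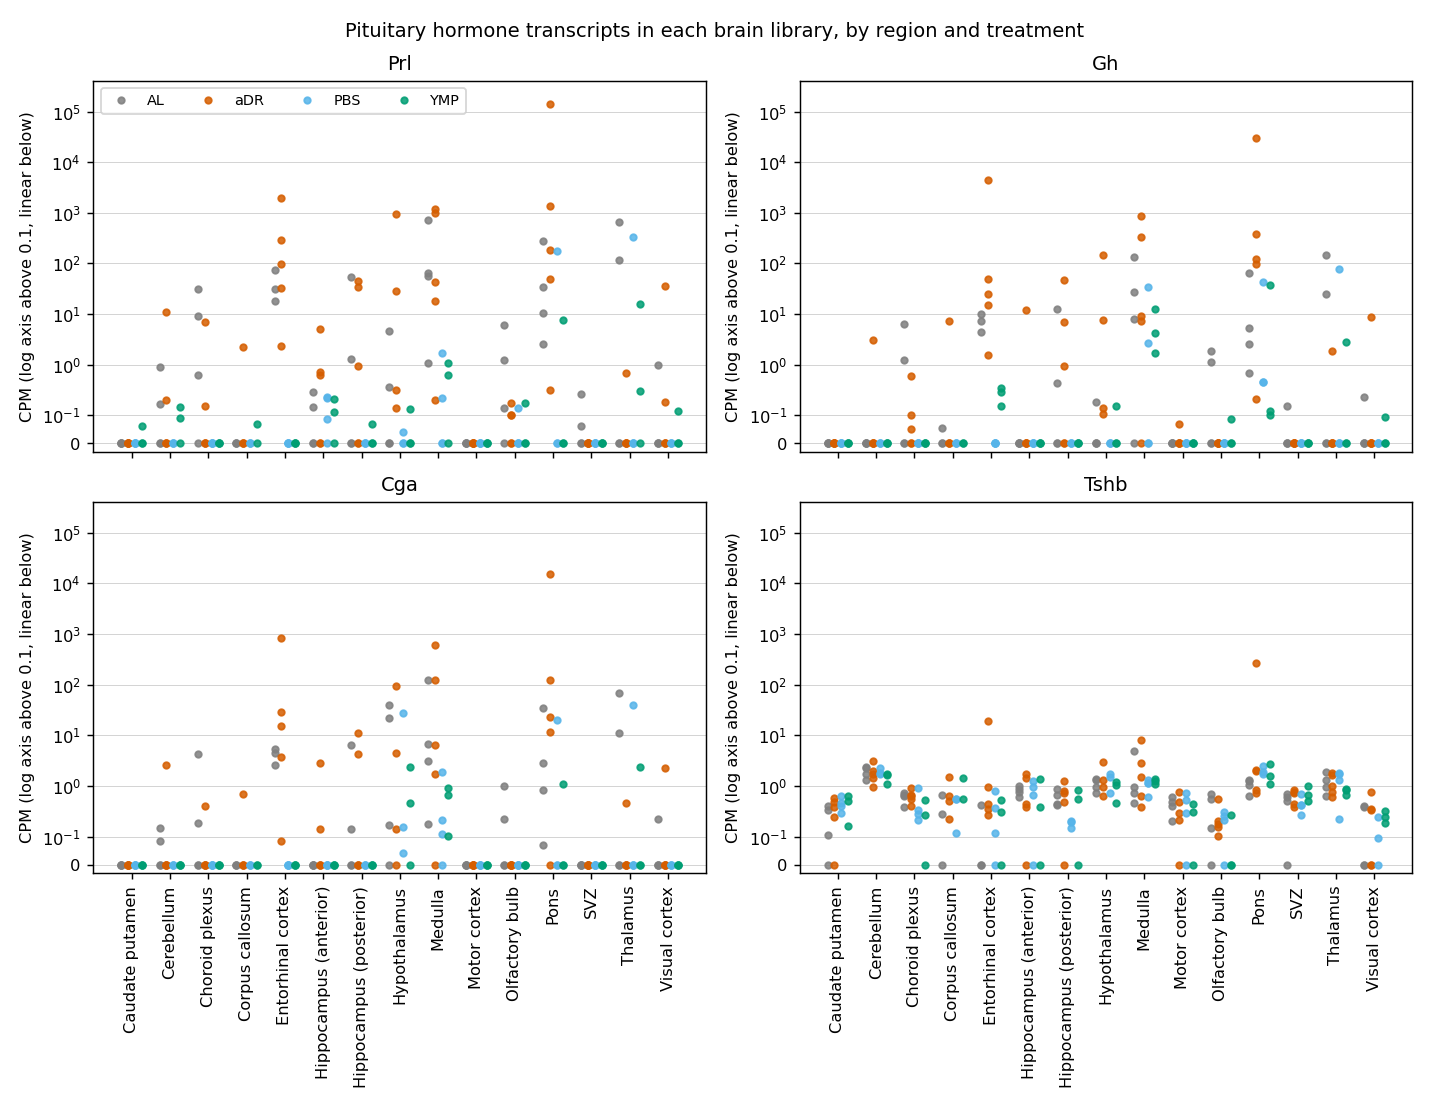
CPM of Prl, Gh, Cga and Tshb (vertical axis, logarithmic above 0.1 CPM and linear below) in each brain library, by region (horizontal axis); each point is 1 library, coloured by treatment. Pons, medulla, entorhinal cortex, hypothalamus and thalamus hold the high Prl, Gh and Cga values, with the pons of aDR mouse 67 at 140935 CPM Prl, and Tshb lies below 10 CPM in all libraries but 2.

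Presence of the 3 abundant transcripts coincided. Over both experiments, 166 brain libraries had none of Prl, Gh and Cga above 3 counts, 13 had 1 of them, 9 had 2 and 41 had all 3. The libraries with all 3 numbered 35 of 131 in the diet experiment and 6 of 98 in the plasma experiment. Prl was above 3 counts in 49 of the 131 diet libraries and in 8 of the 98 plasma libraries. In liver, Prl and Gh had 0 counts in all 9 libraries, where 3 counts would have been 0.247 to 0.857 CPM, and Cga had at most 1.16 CPM.

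The pons held the highest level of each of the 4 genes. In the aDR mice pons Prl was 183 CPM in mouse 61, 49.3 in mouse 62, 1349 in mouse 64, 0.314 in mouse 65 and 140935 in mouse 67. In the AL mice it was 35.0 CPM in mouse 63, 2.59 in mouse 66, 276 in mouse 68 and 10.3 in mouse 69. Mouse 67 stood far above all others and aDR mouse 65 below every AL mouse, so the aDR values enclosed the AL values. In males, pons Prl was 180 CPM in PBS mouse 80 and 7.63 CPM in YMP mouse 81, and 0 in the other 4 libraries. Pons Gh followed the same order among the top libraries, at 30256 CPM in aDR mouse 67 and 386 CPM in aDR mouse 64. The lowest diet value of pons Gh was again that of aDR mouse 65, at 0.209 CPM, below the AL range of 0.701 to 63.4 CPM. Cga reached 15275 CPM in the pons of mouse 67 and 126 CPM in that of mouse 64. Tshb reached 263 CPM in mouse 67, against 0.631 to 2.11 CPM in the other 8 diet libraries.

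The 4 members together made up 18.7% of all counts in the pons of aDR mouse 67. Per kilobase of exon, the scale on which genes can be compared, Prl stood at 100096 CPM per kb there, Gh at 35100, Cga at 16012 and Tshb at 57.8. In the same library Pou1f1, the factor of lactotrophs, somatotrophs and thyrotrophs, was at 252 CPM, whereas its median over all brain libraries was 0 CPM. Other transcription factors of the gland were high there as well, with Pitx1 at 117 CPM, Gata2 at 111 and Lhx3 at 100 CPM. The gonadotropin beta subunits Lhb and Fshb stood at 35.8 and 24.7 CPM, the growth hormone-releasing hormone receptor Ghrhr at 13.0 and Pomc, the corticotropin precursor, at 91.4 CPM. Of 18 other anterior pituitary genes listed, 13 were above 3 counts, and Hesx1 and Lhx4 were among those with none. Brain tissue makes several of these genes itself. The share of all genes above 3 counts in that library was not compared, so the number detected says nothing by itself. The list summed to 949 CPM, against 34.0 to 87.7 CPM for the lowest and the median aDR pons, 27.6 to 83.6 CPM over the AL pons libraries and 21.5 to 60.2 CPM over the male ones. The prolactin receptor Prlr was at 195 CPM in this library and the deiodinase Dio2 at 321 CPM, against medians of 15.3 and 15.4 CPM over the 9 diet pons libraries. In contrast Th, the enzyme of catecholamine neurons, had 0 counts in it. Lists of other tissues were low in that library: choroid plexus genes summed to 9.56 CPM, liver transcripts to 0.980 CPM, hypothalamic peptides to 2.21 CPM and haemoglobin genes to 15.2 CPM. What part whole pituitary tissue had in these counts was not tested.

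Entorhinal cortex separated the experiments. All 8 diet libraries had Prl, at 2.32 CPM or more, and Gh, at 1.55 CPM or more. All 7 plasma libraries had 0 Prl counts, where 3 counts would have been 0.136 to 1.07 CPM. Gh had 0 counts in the 4 PBS libraries and 0.155 to 0.346 CPM in the 3 YMP libraries, 1 of which had more than 3 counts. In the aDR mice entorhinal Prl was 32.8 CPM in mouse 61, 1944 in mouse 62, 97.8 in mouse 64, 2.32 in mouse 65 and 295 in mouse 67. In the AL mice it was 73.3 CPM in mouse 63, 31.2 in mouse 66 and 18.1 in mouse 69. The highest and the lowest library were both aDR, and the AL values lay between them. Mouse 62 was apart in another respect, with Gh at 4544 CPM and Cga at 843 CPM. Per kilobase, Gh was the highest member there at 5272 CPM per kb, above Prl at 1381, Cga at 883 and Tshb at 4.20. Pomc reached 482 CPM in that library, Lhb 47.0, Fshb 37.0 and Pou1f1 8.25 CPM. In the plasma libraries of this region Lhb and Fshb were at 0, and the list of 18 pituitary genes, several of which brain tissue makes itself, still summed to 36.9 to 101 CPM.

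Medulla had more than 3 Prl counts in 8 of the 9 diet libraries. The aDR values were 18.1 CPM in mouse 61, 975 in mouse 62, 43.5 in mouse 64, 0.197 in mouse 65 and 1209 in mouse 67, and the AL values 66.1 in mouse 63, 725 in mouse 66, 57.0 in mouse 68 and 1.06 in mouse 69. The groups overlapped, and each held both high and nearly empty libraries. Pomc was at 805 CPM in the medulla of aDR mouse 67, against 1.70 to 52.8 CPM in the other aDR medullas. In the male medullas the members parted. Gh was 34.3 CPM in PBS mouse 80, 12.8 in YMP mouse 81, 4.29 in YMP mouse 73, 2.63 in PBS mouse 84 and 1.67 in YMP mouse 77. Prl did not exceed 1.70 CPM in any of the 7 male medullas. Gh counts in PBS mouse 80 were 364 against 18 of Prl, and in YMP mouse 81 they were 177 against 15. In the thalamus of the same mice the order was the opposite, with 725 Gh against 3111 Prl counts in mouse 80 and 23 against 128 in mouse 81.

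Thalamus had more than 3 counts of Prl, Gh and Cga in 5 of 16 libraries. Prl stood at 648 CPM in AL mouse 68, 119 in AL mouse 69, 326 in PBS mouse 80 and 15.9 in YMP mouse 81. It was 0.702 CPM in aDR mouse 62, where Gh was 1.87 and Cga 0.468 CPM. Prl was at most 0.306 CPM in the other 11 thalamus libraries, aDR mouse 67 included. Gh and Cga were highest in the same 4 libraries as Prl, Gh between 2.86 and 149 CPM and Cga between 2.36 and 69.0 CPM. Pou1f1 was low even in the highest of them, at 1.76 CPM in AL mouse 68, and Fshb was at 0 there. The regions at the other end were motor cortex, with 0 Prl counts in 16 libraries, and caudate putamen and the region labelled SVZ, where no library had more than 3 counts of Prl, Gh or Cga.

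**Figure D2:**
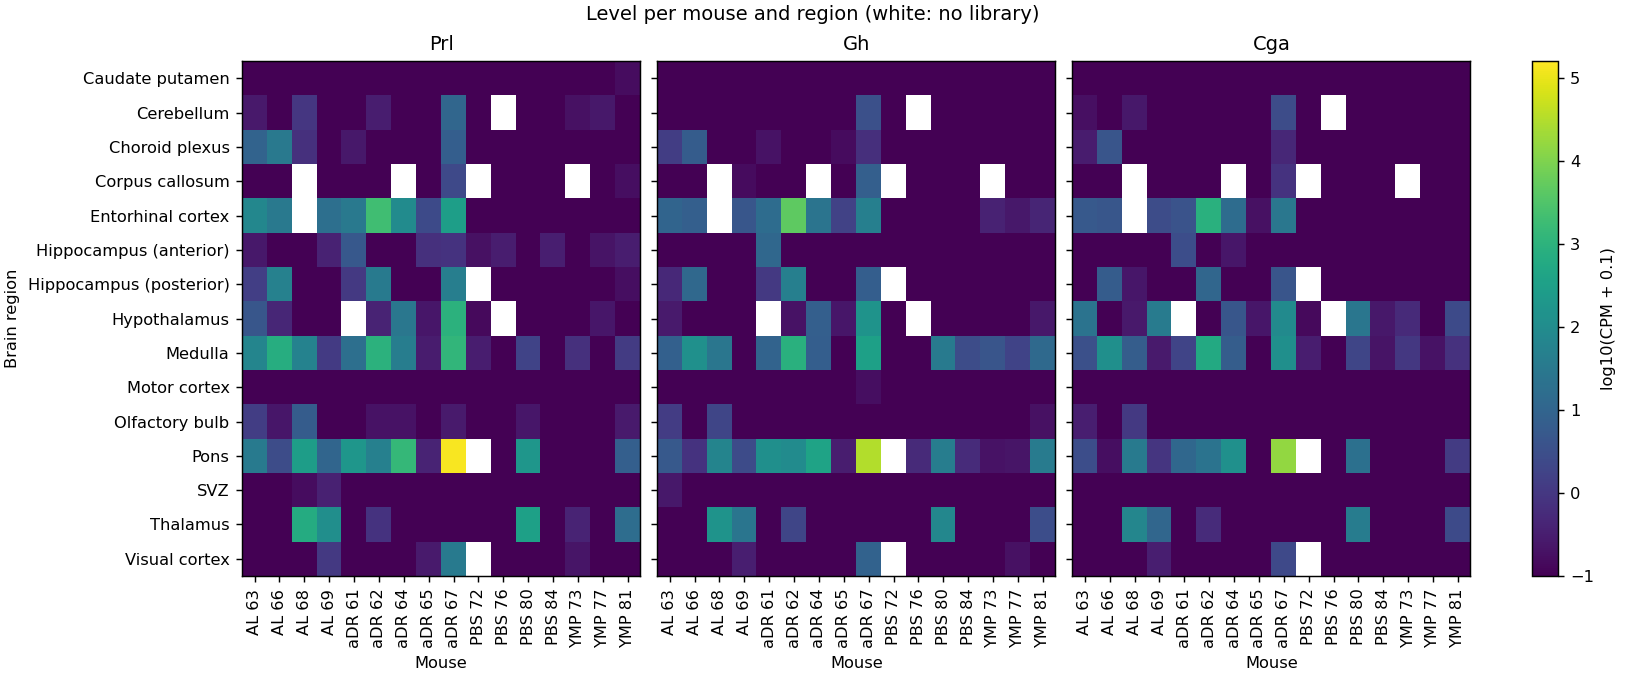
Level of Prl, Gh and Cga (colour, log10 of CPM + 0.1) per mouse (columns, by treatment) and brain region (rows); white marks a region with no library. The mice do not share 1 set of regions: aDR mouse 67 is high in pons, medulla and hypothalamus and 0 in thalamus, whereas AL mouse 68 is highest in thalamus.

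The proportion of Prl to Gh was alike in the libraries of some mice and wide in others. In the 36 libraries with at least 20 counts of both, the ratio of Prl to Gh counts had a median of 4.17 and ran from 0.310 to 8.40. These are ratios of counts, uncorrected for gene length, and compare libraries only. In AL mouse 63 the ratio was 6.47 to 8.40 over 3 libraries, in AL mouse 66 it was 4.28 to 5.53 over 4, and in AL mouse 69 4.00 to 4.70 over 3. AL mouse 68 had the lowest AL ratios, at 2.12 to 4.36 over 4 libraries. In aDR mouse 62 it was 0.428 to 1.14 over 4 libraries, below that of every AL library. The 4 libraries of mouse 61 ran from 0.425 to 2.12 and the 7 of mouse 67 from 0.310 in corpus callosum to 6.51 in posterior hippocampus. The standard deviation of the log2 ratio was 1.27 over all 36 libraries, 1.17 within regions and 0.891 within mice. Cga counts per Prl count were 0.330 to 0.611 in mouse 62 and 0.108 in the pons of mouse 67. High values were not limited to mouse 62. The anterior hippocampus of mouse 61 had 0.559 and the corpus callosum of mouse 67 had 0.308. What set these proportions was not tested.

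**Figure D3:**
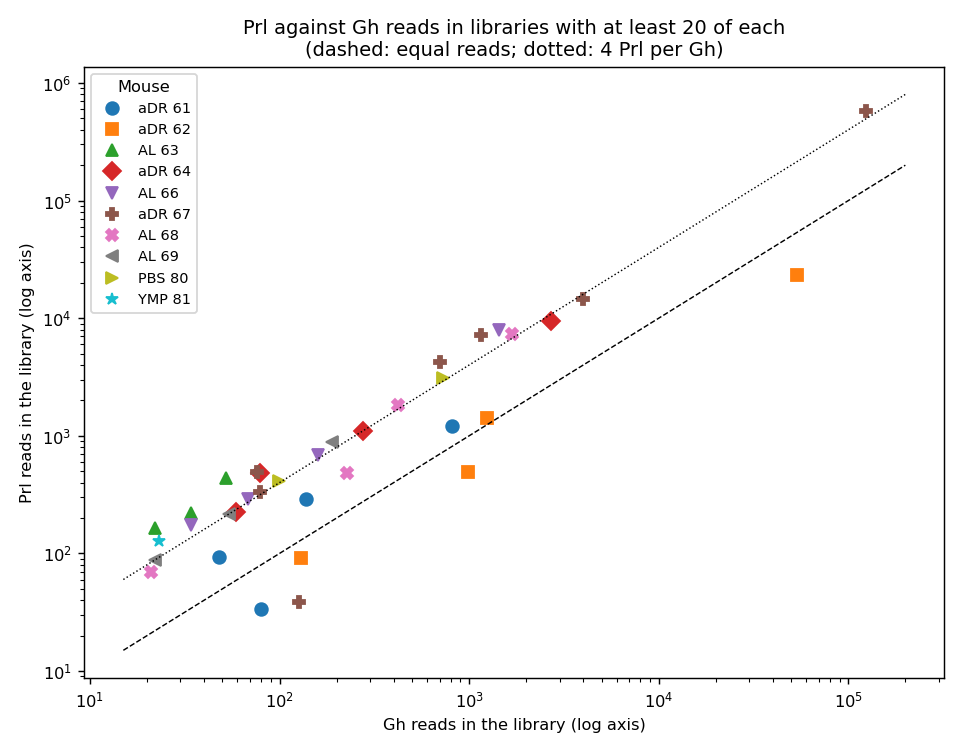
Prl counts (vertical axis) against Gh counts (horizontal axis), both logarithmic, in the 36 libraries with at least 20 of each; 1 point per library, with symbol and colour by mouse. Most libraries lie near the dotted line of 4 Prl counts per Gh count, and 5 lie below the dashed line of equal counts, 3 of them from aDR mouse 62.

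In the hypothalamus Cga was found without Prl and Gh. Hypothalamic Cga was 22.4 CPM in AL mouse 63, 0 in mouse 66, 0.170 in mouse 68 and 38.8 in mouse 69. In the aDR mice it was 0 in mouse 62, 4.37 in mouse 64, 0.138 in mouse 65 and 94.9 in mouse 67. In the males it was 27.1 CPM in PBS mouse 80, 2.40 in YMP mouse 81 and at most 0.456 in the other 4. High and near-zero libraries occurred in each of the diet groups, which overlapped. AL mouse 69, with 207 Cga counts, and PBS mouse 80, with 222, had 0 counts of both Prl and Gh. AL mouse 63 had 122 Cga counts, 25 of Prl and 1 of Gh. The order was the opposite in aDR mice 67 and 64, where Prl stood at 938 and 28.7 CPM, above Cga. Pitx1, a transcription factor of the pituitary and its pars tuberalis, was above 0 in AL mice 63 and 69, aDR mouse 67, PBS mouse 80 and YMP mouse 81, and had 0 counts in the other 9. The follicle-stimulating hormone subunit Fshb had 5 counts in AL mouse 69 and 8 in PBS mouse 80. Tshb was 0.733 to 1.31 CPM in mice 63, 69 and 80, within the range of 0.456 to 2.97 CPM over all 14 hypothalamus libraries.

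**Figure D4:**
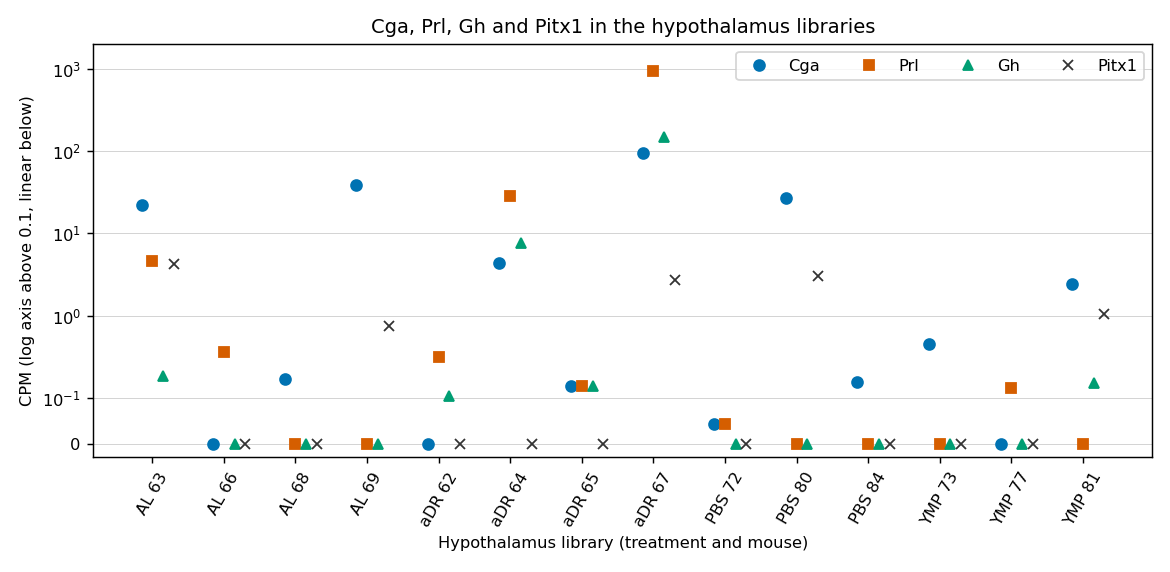
CPM of Cga, Prl, Gh and Pitx1 (vertical axis, logarithmic above 0.1 CPM and linear below) in the 14 hypothalamus libraries (horizontal axis, treatment and mouse); each symbol is 1 gene in 1 library. Cga stands at 22.4 to 38.8 CPM in AL mouse 63, AL mouse 69 and PBS mouse 80, where Gh is at or near 0, and Prl exceeds Cga by the most in aDR mouse 67.

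Marker genes of hypothalamic cells also varied between these libraries. Gpr50 and Rax, genes of the tanycytes that line the base of the third ventricle, were high in AL mouse 63, aDR mice 65 and 67, PBS mouse 80 and YMP mouse 81, where Gpr50 was 43.9 to 52.1 CPM. In the other 9 libraries Gpr50 was 2.72 to 23.1 CPM. aDR mouse 65 had high Gpr50 with Cga at 0.138 CPM, and AL mouse 69 had Cga with Gpr50 at 13.9 CPM. The neuropeptide genes Hcrt and Pmch were at 0.168 and 1.51 CPM in PBS mouse 72, against at least 59.9 and 90.5 CPM in all other hypothalamus libraries, and Avp was at 0.627 CPM in aDR mouse 62. Six6, listed among the pars tuberalis genes, ran from 0 to 44.1 CPM and Mtnr1a, the melatonin receptor that marks this tissue, from 0 to 0.734 CPM. The part of the tissue sampled in the Cga level was not tested. In bulk tissue, fewer cells of a type and less RNA per cell cannot be told apart.

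Reads assigned to Cga have a limit of their own. Platr9, a non-coding gene at chr4:34906124-34911481 on the minus strand, shares 305 exonic bases with Cga. The library preparation kept no strand, so reads from the shared bases cannot be told apart. Platr9 was the gene most like Cga, with a Pearson correlation of log2(CPM + 1) of 0.99 over all brain libraries, the highest of 16204 genes. In the hypothalamus of AL mouse 69 it had 95 counts beside 207 of Cga.

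The genes most like the other members were largely of the same set. Correlations are over libraries that share mice, regions and depth, so they describe these libraries. For Prl the 5 nearest were Gh (0.95), Cga (0.92), Platr9 (0.89), Prss28 (0.72) and Pou1f1 (0.60). Gh had Prl (0.95), Cga (0.92), Platr9 (0.90), Prss28 (0.73) and Fshb (0.68). After Platr9, Cga had Gh and Prl (both 0.92), Prss28 (0.77) and Fshb (0.76). Tshb had Pou1f1 (0.75), Prss28 (0.72), Bhlha15 (0.72), Fshb (0.71) and Hepacam2 (0.70). Prss28, a serine protease gene, was at 2721 CPM in the pons of aDR mouse 67 and at most 15.0 CPM in any other brain library. In the same pons library Pou1f1, Bhlha15 and Hepacam2 were at 252, 32.3 and 92.9 CPM. Elsewhere in brain they reached at most 8.25, 2.02 and 6.06 CPM. How far the correlations rest on that pons library was not tested.

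Tshb had a pattern apart from the other members. Its median by region ran from 0.191 CPM in olfactory bulb to 1.55 in pons and 1.74 CPM in cerebellum, and every library of cerebellum, pons, medulla, hypothalamus and thalamus had at least 1 count. Neighbouring regions in this order overlapped: cerebellum ran from 0.948 to 3.14 CPM over 15 libraries, and medulla, with a median of 1.14, from 0.385 to 8.22 CPM over 16. Caudate putamen and motor cortex, where Prl, Gh and Cga were at or near 0, still had Tshb medians of 0.391 and 0.359 CPM. The Tshb gene lies wholly inside the span of Tspan2, a tetraspanin gene of oligodendrocytes on the opposite strand, with 0 of its 4555 exonic bases in Tspan2 exons. As a description, the medians of Tshb and Tspan2 over the 15 regions had a Pearson r of 0.51, and their ranks a Spearman rho of 0.65. Whether the low Tshb counts came from unspliced Tspan2 transcripts was not tested. Only the pons of aDR mouse 67 and the entorhinal cortex of aDR mouse 62, at 19.1 CPM, exceeded 10 CPM.

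Pooled over all brain libraries of a mouse, the treatment groups overlapped for Prl, Gh and Cga. The pools did not all hold the same regions, so the values are not fully alike. For example, AL mouse 68 had no entorhinal cortex library, aDR mouse 61 no hypothalamus and PBS mouse 72 no pons. Prl of the aDR mice was 12.6 CPM in mouse 61, 219 in mouse 62, 109 in mouse 64, 0.296 in mouse 65 and 4267 in mouse 67. Prl of the AL mice was 8.56 CPM in mouse 63, 62.7 in mouse 66, 74.1 in mouse 68 and 8.03 in mouse 69. The aDR group held the lowest mouse and the 3 highest. Among the males PBS mouse 80 had 27.8 CPM and YMP mouse 81 1.02, and the other 5 had at most 0.0897 CPM. Pooled Gh was 0.159 to 918 CPM in aDR against 1.23 to 17.9 in AL, and 0 to 9.32 CPM in PBS against 0.175 to 1.69 in YMP. Pooled Cga was 0.0144 to 461 CPM in aDR against 1.57 to 10.4 in AL. Pooled Tshb overlapped too, at 0.571 to 8.78 CPM in aDR and 0.662 to 1.003 in AL.

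No member passed the test between treatments in any single region. edgeR's quasi-likelihood test with Benjamini-Hochberg adjustment over all genes of the region was used, at an adjusted p under 0.05. In the diet experiment 13 of the 60 pairs of member and region passed the filter on low counts and 0 were called. At an unadjusted p under 0.05 there were 5, of which 1 was for Prl, 2 for Gh and 2 for Cga. These members were high in the same libraries, so the 5 are not separate results. The share of all genes under that unadjusted p was not compared, so the number supports nothing by itself. At the adjusted threshold the background of called genes was 0% in pons, entorhinal cortex, hypothalamus and thalamus, 0.00714% in medulla and 0.0524% in cerebellum. In pons the log2 change, aDR minus AL, was 8.72 (SE 3.45) for Prl, 8.69 (SE 3.11) for Gh and 8.60 (SE 3.31) for Cga, each at an adjusted p of 0.997. Without mouse 67 these were 2.40, 3.22 and 2.21. In entorhinal cortex the log2 changes were 3.65 (SE 1.77), 7.14 (SE 2.87) and 5.57 (SE 2.45), each at an adjusted p of 0.9997. Without mouse 62 they were the lowest of the values with 1 mouse left out, at 1.54, 1.78 and 1.66. In medulla Gh differed by 2.40 (SE 1.57), Cga by 1.78 (SE 1.60) and Prl by 1.07 (SE 1.52). Hypothalamic Cga differed by 0.82 (SE 1.61), and by -3.32 without mouse 67. In the plasma experiment 5 of 60 pairs passed the filter and 0 were called, with 0 at an unadjusted p under 0.05. Those were Gh in medulla and Tshb in cerebellum, medulla, pons and thalamus, and the background was 0.00738% in cerebellum and 0% in the other 3 regions. DESeq2 gave no adjusted p for the pons values or for entorhinal Gh and Cga, and called 0 of the other member tests.

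Over several regions together, the size of the diet difference depended on how libraries were combined. On counts summed per mouse over the 12 regions that every diet mouse had, which leave out hypothalamus, entorhinal cortex and corpus callosum, log2 changes were 4.77 (SE 2.34) for Prl, 4.85 (SE 2.05) for Gh, 4.48 (SE 2.09) for Cga and 1.87 (SE 0.95) for Tshb, with adjusted p from 0.375 to 0.464 and a background of 0.296%. Without mouse 67 they were -0.19, 0.92, 0.13 and -0.05. With 1 log2 value per mouse, tested with limma, they were 0.19 (SE 0.86), 0.66 (SE 0.71), 0.26 (SE 0.62) and 0.32 (SE 0.25), with adjusted p from 0.582 to 0.943 and a background of 0.922%. When single libraries entered limma's voom fit with the mouse as a block, Gh was called higher in aDR, at 2.72 (SE 0.86) and an adjusted p of 0.0274, where 9.44% of genes were called. In that fit Prl (1.37), Cga (1.41) and Tshb (0.37) were not called. The same fit called 0 members in the plasma experiment, where it called 3.09% of genes. There 0 members were called in the summed counts or in the values per mouse either, against a background of 0%. The plasma sum covered 9 regions and left out pons and hypothalamus, among others. Its log2 change, YMP minus PBS, was -3.99 (SE 2.51) for Prl and -1.77 (SE 1.96) for Gh. Without PBS mouse 80 it was 3.35 for Gh, and Prl no longer passed the filter.

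**Figure D5:**
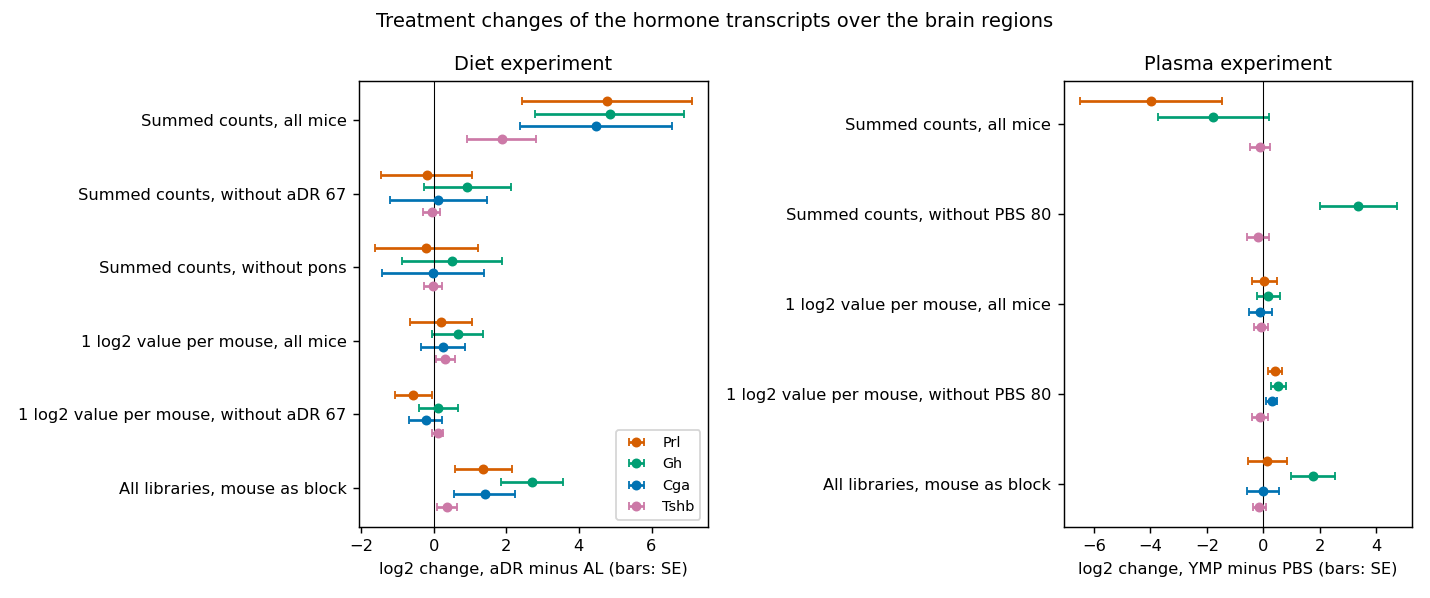
Log2 change of each member over the brain regions (horizontal axis, bars are SE), aDR minus AL on the left and YMP minus PBS on the right, with 1 row per way of combining libraries. The summed diet changes of 4.48 to 4.85 for Prl, Gh and Cga move to between -0.19 and 0.92 without aDR mouse 67.

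Genes around the members in the same axis were compared with the same fits. The background of called genes in the other diet regions was 0.251% in motor cortex, 0.202% in visual cortex, 0.0215% in corpus callosum, 0.0212% in SVZ, 0.0146% in caudate putamen, 0.00707% in choroid plexus and 0% in both parts of the hippocampus. Of the 18 other anterior pituitary genes 10 were tested in at least 1 region of the diet experiment, in 66 tests, and 0 were called. Their median log2 change was 0.14. The median of all genes tested was taken in each region, and the median of these values over the regions was 0.0018. Pons Lhx3 differed by 3.96 (SE 1.54) and Pomc by 2.73 (SE 1.16), with an adjusted p of 0.997. The hypothalamic regulators, 8 genes such as Ghrh, Sst and Trh that drive or restrain pituitary release, had 0 calls in 58 diet tests and 0 in 60 plasma tests. The other anterior pituitary genes had 0 calls in 59 plasma tests, and the 4 pars tuberalis genes had 0 in 17 tests in each experiment. Hormone receptors and response genes, such as Ghr, Igf1 and Socs2, had 0 calls in 94 diet tests. In the plasma experiment 1 of their 91 tests was called: Prlr was lower in YMP in corpus callosum by 6.21 on the log2 scale (SE 0.62, adjusted p = 0.0283), where 0.184% of genes were called. That fit had 2 YMP and 3 PBS libraries. In the same fit 5 of the choroid plexus genes were called lower, Ttr by 12.72 on the log2 scale, and that epithelium is known to express Prlr. What part choroid plexus tissue had in the Prlr value was not tested. No choroid plexus gene was called in the diet experiment, in 43 tests. Tanycyte genes had 1 call in 30 diet tests and 0 in 30 plasma tests: Gpr50 was lower in aDR in olfactory bulb by 0.80 on the log2 scale (SE 0.14, adjusted p = 0.0455), where 0.220% of genes were called. Hypothalamic peptides, liver transcripts and blood genes had 0 calls in both experiments. In the fits over several regions together 0 genes of any of these lists were called.

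Values of the other marker lists are given beside those of the members, though none of these genes was called in the fits over several regions. The 4 haemoglobin genes had a median log2 change, aDR minus AL, of 1.17 over 41 region tests, 36 of them above 0. Those tests share the same mice and the same 4 genes, so they are not independent. Across regions the median was 0.97 and in summed counts 1.08, with all 4 genes above 0 in both, against -0.0062 and -0.0023 over all genes tested. In the plasma experiment the 4 haemoglobin genes were below 0 in both, with medians of -0.35 and -0.48. In single regions 19 of their 41 plasma tests were above 0. All 7 choroid plexus genes were above 0 in the summed diet counts, with a median of 0.96. Across regions their diet median was 0.13, with 5 of the 7 above 0, and over 43 region tests it was 0.15. In the plasma experiment all 7 were below 0, with a median of -1.20 across regions and -1.72 in summed counts, against -0.0037 and -0.0034 over all genes tested. The part of blood and choroid plexus in the members' changes was not tested.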

How the data were processed

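RNA from homogenised tissue was made into Smart-Seq2 and Nextera XT libraries without strand information, per the labels' protocols. The authors deposited whole-number counts per gene in 1 table of 238 libraries. Trim Galore 0.3.7, STAR 2.5.3a, DESeq2 and the build GRCm38 are named, per the submitters' processing notes, and the counting program and its annotation are not given in the sources used here. Without strand, reads of overlapping genes on opposite strands cannot be told apart, which touches Cga with Platr9 and Tshb with Tspan2.

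The counts were used as deposited. Levels are CPM, counts per 1000000 of the plain library total. Gene positions, exonic lengths and overlaps came from the GENCODE annotation of GRCm38, and promoters from RefSeq. Changes within a region were tested with edgeR 4.0.16 (quasi-likelihood, TMM, and a filterByExpr filter at 10 counts a library and 15 in total). Over the brain, the mouse was the unit: limma 3.58.1 was run on 1 value per mouse (the mouse term after region was fitted, on log2 CPM with 2 prior counts), and edgeR on counts summed over the regions that every mouse of the experiment had. All p-values were adjusted by Benjamini-Hochberg over all genes tested, with a threshold of 0.05, in R 4.3.3. DESeq2 1.42.0, other scalings, filters, voom fits and leaving out each mouse were alternatives. The fits were tested on simulated data in which only well-counted genes changed and no library stood apart. That simulation does not cover members at 0 in most libraries. Replicates are separate mice. No pair of replicate libraries of a group agreed within counting noise: over 357 pairs the lowest chi-square per degree of freedom was 1.32.

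The members and all lists were chosen with earlier results of these data known. The text names the 4 members, genes of the lists (other anterior pituitary genes, pars tuberalis genes, hypothalamic regulators, hormone receptors and response genes, tanycyte genes, hypothalamic peptides, choroid plexus, liver transcripts and blood) and, for each member, the 5 genes with the highest Pearson correlation of log2(CPM + 1) among genes with at least 10 counts in at least 3 brain libraries. Tspan2 and Platr9 were added for their overlap, and Th in pons is a member of the regulators. At the median total of 8.44 M counts (M, 1000000), 3 counts are about the lowest level read here. The floors cover counting error only. SEs come from the fits and include variation between the libraries or mice of a group.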

Additional observations from a re-analysis of the deposited data

Results flagged for a closer look

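In 93 groups of 4 or more libraries of a region and treatment, the highest and lowest library were compared with the rest of the group by Dixon's test for each member with a library above 3 counts. The highest library stood apart in 50. For normal values chance flags about 1 in 20 groups, but these counts are mostly 0 and a group entered through its high library, so the number of flags supports nothing by itself. The values are also not independent, since Prl, Gh and Cga were high together. They came from 21 libraries, 17 of the values from aDR mouse 67, and in 15 the nearest library was at 0. Values are in CPM.

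In pons, aDR mouse 67 stood apart for Prl (140935), Gh (30256), Cga (15275) and Tshb (263), and AL mouse 68 for Prl (276), Gh (63.4) and Cga (35.0). In entorhinal cortex aDR mouse 62 did so for Prl (1944), Gh (4544), Cga (843) and Tshb (19.1). In medulla it was AL mouse 66 for Prl (725), Cga (125) and Tshb (4.81), aDR mouse 62 for Cga (596), and PBS mouse 80 for Prl (1.70), Gh (34.3) and Cga (1.88). In hypothalamus it was aDR mouse 67 for Prl (938), Gh (149) and Cga (94.9), and AL mouse 63 for Prl (4.58). In thalamus it was AL mouse 68 for Gh (149) and Cga (69.0), PBS mouse 80 for Prl (326), Gh (76.0) and Cga (39.7), and aDR mouse 62 for Prl (0.702), Gh (1.87) and Cga (0.468).

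In posterior hippocampus AL mouse 66 stood apart for Prl (53.8), Gh (12.4) and Cga (6.34), and aDR mouse 62 for Gh (47.7). In anterior hippocampus it was aDR mouse 61 for Prl (5.09), Gh (11.97) and Cga (2.84). aDR mouse 67 was apart in visual cortex for Prl (36.2), Gh (8.61) and Cga (2.29), in cerebellum for Prl (10.9), Gh (3.14) and Cga (2.65), in corpus callosum for Prl (2.27), Gh (7.33) and Cga (0.698), and in choroid plexus for Prl (7.12). The others were AL mouse 69 for Prl in visual cortex (0.983), AL mouse 66 for Cga in choroid plexus (4.22) and PBS mouse 72 for Tshb in choroid plexus (0.923).

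In liver, outside the brain comparisons, Cga had more than 3 counts in 3 AL libraries: 5 counts in mouse 63, 4 in mouse 66 and 7 in mouse 68.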

How the results depend on the processing

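Single regions gave 0 called member tests under every alternative. Of 191 alternative values of single region changes 178 kept their direction and side of the threshold, as did 113 of 128 values across regions and 77 of 85 of summed counts. Tests to which DESeq2 gave no adjusted p entered all these counts as not called, though no call was possible for them. Gh across regions was called in the diet experiment when libraries entered a voom fit with the mouse as a block (2.72, adjusted p = 0.0274) and with no block (2.54, adjusted p = 0.0170), and over all its alternatives the adjusted p ran from 0.0170 to 0.928. The block changed no other call of a member. Its fit called 1474 genes and the fit with no block 2760 (17.7% of genes), against 144 with 1 value per mouse in the diet experiment. In the plasma experiment they called 487 and 2629 (16.7%), against 0. Mice have numbers of their own, so no pairing across treatments exists.

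Directions turned without hypothalamus for Prl across regions in the diet experiment (-0.043). In summed diet counts they turned without pons, an alternative chosen after seeing the data, for Prl (-0.20), Cga (-0.011) and Tshb (-0.017). Tshb turned in medulla with no filter (0.021) and with DESeq2 (0.54), in thalamus with median-ratio factors (-0.00084), and in summed plasma counts over all regions (0.0095).

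Leaving out 1 mouse moved diet changes across regions from -0.55 to 0.74 for Prl and from -0.22 to 0.70 for Cga. Summed diet changes moved from -0.19 to 5.26 for Prl and from -0.048 to 2.13 for Tshb. Plasma changes across regions moved from -0.27 to 0.43 for Prl, -0.13 to 0.53 for Gh, -0.32 to 0.29 for Cga and -0.25 to 0.092 for Tshb. Summed plasma changes moved from -3.05 to 3.35 for Gh and -0.34 to 0.13 for Tshb. Within regions the diet ranges that crossed 0 were -3.32 to 1.98 for Cga in hypothalamus, -0.024 to 5.27 for Cga in medulla, and for Tshb -0.30 to 0.10 in cerebellum, -0.34 to 1.31 in medulla and -0.18 to 0.097 in thalamus. Gh in medulla ran from -1.77 to 3.16 in the plasma experiment. Summing without hypothalamus was no separate alternative, since the sums already left it out. DESeq2 gave no adjusted p for 11 of the member tests that it fitted.

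Members at 0 in most libraries could not be tested in most regions, and with 2 to 5 libraries a group in a region, 1 library decided the largest changes of the members in pons and entorhinal cortex. The labels place no library in a dissection or sequencing batch.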
